A study of Mus musculus with 6 samples.

Results

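The 9 genes described here serve the support work of astrocytes at synapses, vessels and cell contacts: Slc1a2, Slc1a3, Glul, Aqp4, Gja1, Gjb6, Mlc1, Hepacam and Gpc5. They were chosen by name, as 9 of the 37475 rows of the gene table. Earlier results of these data were known when these genes and the lists of other genes below were chosen. Each symbol of the 9 had a single row, and all 9 passed the filter on low counts, among 22114 genes tested. RNA sequencing was done on polyadenylated RNA of the spinal cord of wild-type mice taken on day 3 after contusion, in which an impactor strikes the exposed cord, here at T10, a lower thoracic level. The syringin group held 3 mice given daily intraperitoneal syringin, a plant phenylpropanoid glucoside, at 50 mg/kg for 3 days. The PBS group held 3 mice given phosphate-buffered saline (PBS), the vehicle, for 3 days. Both groups were injured, and uninjured cord was not analysed here, so every difference below is between injured cords with and without syringin.

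Astrocytes take up the glutamate that synapses release through the sodium-coupled transporters GLT-1 (Slc1a2) and GLAST (Slc1a3), and glutamine synthetase (Glul) turns it into glutamine, which is passed back to neurons. Water crosses their endfeet on blood vessels through aquaporin 4 (Aqp4), and connexin 43 (Gja1) and connexin 30 (Gjb6) form the gap junctions that join astrocytes into a network. The membrane protein MLC1 and its partner GlialCAM (Hepacam) sit together at astrocyte contacts, and both are mutated in a human leukodystrophy with swollen white matter. Glypican 5 (Gpc5) is a heparan sulfate proteoglycan anchored to the cell surface. After injury, astrocytes around a lesion become reactive, with more of the filament proteins GFAP and vimentin.

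The gene counts of a library summed to between 65579117 and 78843034, and among small counts the value 4 was 1.51 times as frequent as the mean of 3 and 5, so these totals may overstate the number of independent reads. Values are in CPM, counts per 1000000 after scaling by the trimmed mean of M-values. Genes used here as astrocyte markers were present in every library. Gfap, the main astrocyte filament, had 3341 to 5668 CPM, S100b 321 to 437 CPM and Aldh1l1 121 to 158 CPM. The transcription factor gene Sox9 had 46.3 to 66.8 CPM. How much of each came from astrocytes cannot be told in whole-tissue RNA. The libraries differed in ways the treatment does not explain. Transcripts of neurons of the sensory ganglia, which flank the cord, were present in syringin libraries 1 and 3 and in PBS library 1: Scn10a, a sodium channel gene of these neurons, had 3558 and 818 counts in syringin libraries 1 and 3 and 3429 in PBS library 1, against 0 in syringin library 2 and 15 and 0 in PBS libraries 2 and 3.

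Each of the 9 genes had a lower mean in the syringin group than in the PBS group, and log2 fold changes ran from -1.17 for Gjb6 to -0.05 for Glul, with a median of -0.57. Of all genes tested, 49.1% had a negative log2 fold change, and the median was 0.008. Gjb6, Slc1a2, Gpc5 and Mlc1 fell; Slc1a3, Hepacam, Aqp4, Gja1 and Glul did not pass the threshold. Genes were called at an adjusted p of 0.05 (edgeR quasi-likelihood fit, Benjamini-Hochberg over all genes tested, 3 mice in each group). By that rule 4 of the 9 genes were lower and none higher, against 3.39% of all genes lower and 1.62% higher, or 5.01% in either direction (359 higher and 749 lower; after correction for gene length and GC content, 670 higher and 611 lower, with the same 4 of the 9 genes called). With the replicate number as a block 7 of the 9 were lower, against 6.76% of all genes. With a filter at a mean CPM of 1, 5 of the 9 were lower, against 885 of 16585 genes. These backgrounds are not matched to the levels of the 9 genes. For 6 of the 9 genes all syringin values lay below all PBS values, as they did for 15.3% of all genes. Summed over the 9 genes, the level was 3189, 3656 and 3276 CPM in the syringin libraries and 4542, 4477 and 5043 CPM in the PBS libraries. In whole-tissue RNA, fewer astrocytes and less of these RNAs per astrocyte cannot be told apart.

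**Figure D1:**
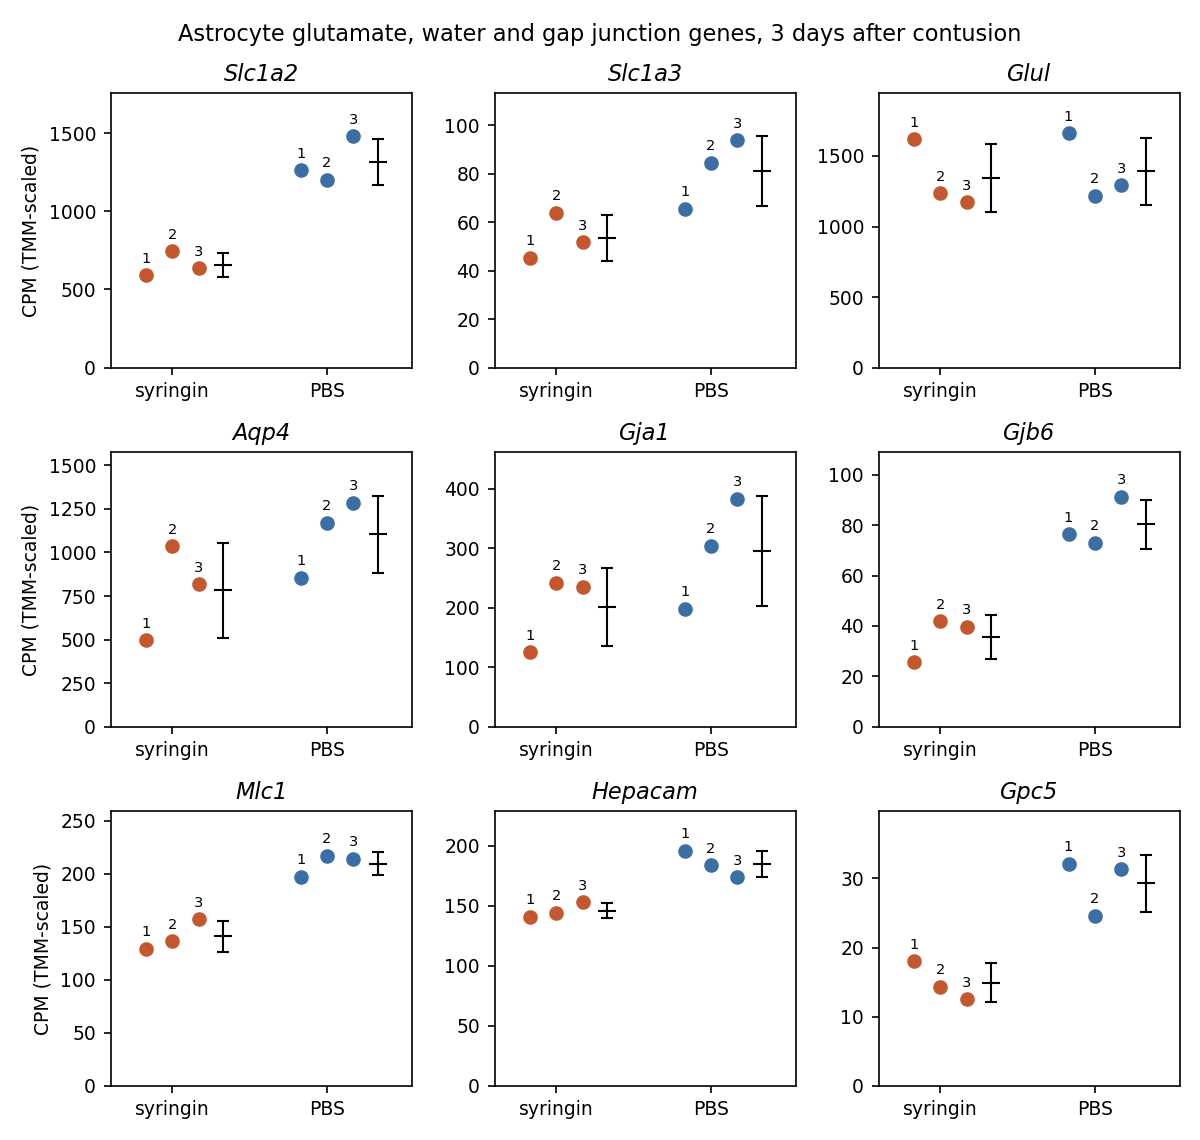
CPM of each of the 9 genes (vertical axes, linear, from 0) in the syringin libraries (left of each panel) and the PBS libraries (right); points are single mice with their replicate number, and bars show the mean and SD of 3. The groups are apart in 6 panels and overlap in those of Aqp4, Gja1 and Glul.

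Among the genes of glutamate handling, the transporter gene Slc1a2 fell, and Slc1a3 and Glul did not pass the test. Slc1a2 (ENSMUSG00000005089, chromosome 2, 102658659 to 102790784, plus strand; positions of the 9 genes are those of GRCm38 in GENCODE M21) codes for GLT-1, the main glutamate transporter of the adult cord. It had 591, 743 and 636 CPM in the syringin libraries, against 1261, 1200.4 and 1479 CPM in the PBS libraries. Every syringin value was below every PBS value, and the gap between the groups was wider than the range within either. The log2 fold change was -1.0 ± 0.13 (± SE here and below), which is 50.0% of the PBS level (adjusted p = 0.0137). Without PBS library 3 it was -0.91 and the call was lost (adjusted p = 0.0959); it was kept without any other single library. Of all genes tested, 4.58% had a log2 fold change as low or lower.

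Slc1a3 (chromosome 15, 8634124 to 8710764, minus strand), the gene of GLAST, the sister transporter that is also prominent in radial glia and Bergmann glia, had 45.3, 63.9 and 51.6 CPM in the syringin libraries, against 65.5, 84.5 and 93.8 CPM in the PBS libraries. The groups were apart by a narrow margin, between syringin library 2 and PBS library 1. The log2 fold change of -0.60 ± 0.17 missed the threshold (adjusted p = 0.0816). On the length-scaled FPKM values that the authors deposited, Slc1a2 was above Slc1a3 in every library, at 45.6 ± 4.51 and 5.71 ± 0.897 FPKM in the syringin group and 92.8 ± 10.5 and 8.83 ± 1.57 FPKM in the PBS group (SD, n = 3 each).

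Glul (chromosome 1, 153899944 to 153909723, plus strand), the gene of glutamine synthetase, which oligodendrocytes of the cord express as well, had 1619.8, 1236 and 1172 CPM in the syringin libraries, against 1661, 1219 and 1291 CPM in the PBS libraries. The groups overlapped throughout, and library 1 was the highest of both. Its log2 fold change was -0.05 ± 0.17 (adjusted p = 0.896), and it was 0.01 and 0.03 without syringin library 2 or 3 and 0.10 without PBS library 1. Glul had the highest FPKM of the 9 genes in both groups, at 325 ± 66.9 in syringin and 341 ± 59.0 in PBS cords. The Glul promoter is shown because its gene was the most abundant and had the smallest difference. The window runs from 250 bases before to 50 bases after the RefSeq start, chr1:153899679-153899978 of GRCm38.p6, plus strand, and capitals mark its 2 matches to the CCAAT box (CCAAT, either strand):

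Glul: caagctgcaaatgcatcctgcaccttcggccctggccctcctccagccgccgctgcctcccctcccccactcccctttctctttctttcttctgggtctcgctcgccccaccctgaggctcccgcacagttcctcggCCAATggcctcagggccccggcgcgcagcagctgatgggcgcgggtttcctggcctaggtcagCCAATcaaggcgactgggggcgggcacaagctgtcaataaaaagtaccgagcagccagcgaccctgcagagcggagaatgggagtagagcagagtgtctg

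The window held 17 CG pairs and 64.3% G and C. A CCAAT match was present in 37.9% of 27025 mouse promoter windows of the same length, so a match is common, and it describes letters, not a bound factor.

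Of 17 tested genes in a list of other transporters, enzymes and receptors of glutamate and glutamine, 2 fell and none rose. Their median log2 fold change was -0.25, and of all genes 3.39% were lower and 1.62% higher. DESeq2 called 7 of the 17 lower, where it called 8.13% of all genes lower. Without PBS library 3 edgeR called none of the 17 and DESeq2 called 2 lower, where it called 4.04% of all genes lower. The metabotropic receptor gene Grm5 (-0.73 ± 0.11, adjusted p = 0.0189) and the neutral amino acid transporter gene Slc1a4 (-0.51 ± 0.08, adjusted p = 0.022), a relative of the glutamate transporters that carries serine and alanine, were the genes that passed. The neuronal transporter gene Slc1a1 had 31.6, 34.5 and 36.4 CPM in syringin libraries and 48.7, 37.9 and 44.3 CPM in PBS libraries (-0.35 ± 0.12, adjusted p = 0.12). Slc25a18, a mitochondrial glutamate carrier of astrocytes, had 18.1, 40.2 and 46.4 CPM in syringin libraries, against 54.6, 83.1 and 90.0 CPM in PBS libraries; its log2 fold change of -1.12 ± 0.34 was as large as that of Slc1a2, with a wider error, and missed the threshold (adjusted p = 0.103). These 2 genes were named after their values were seen.

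The water channel gene Aqp4 (chromosome 18, 15389496 to 15410982, minus strand) did not pass the test, and its libraries differed more within groups than those of Slc1a2. It had 495, 1035 and 819 CPM in the syringin libraries, against 855, 1171 and 1286 CPM in the PBS libraries. Syringin library 2 was above PBS library 1, so the groups overlapped, and library 1 was the lowest of each group. The log2 fold change was -0.50 ± 0.27 (adjusted p = 0.309), and -0.25 without syringin library 1. In FPKM, Aqp4 came second to Glul in both groups, at 114 ± 37.4 in syringin and 164 ± 33.1 in PBS cords.

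Aqp4 shares the endfoot membrane with potassium channels. Of 16 tested genes of water and ion balance, none rose and 3 fell (median -0.26), where 3.39% of all genes were lower. Among the genes that fell were the inward rectifier potassium channel gene Kcnj16 (-0.79 ± 0.13, adjusted p = 0.0216) and the sodium bicarbonate cotransporter gene Slc4a4 (-0.82 ± 0.14, adjusted p = 0.0228). Kcnj10, the gene of Kir4.1, the main potassium channel of astrocytes, had 429, 655 and 642 CPM in syringin libraries, against 731, 856 and 1036 CPM in PBS libraries. All syringin values of Kcnj10 were lower, at a log2 fold change of -0.60 ± 0.19 that missed the threshold (adjusted p = 0.11). Without PBS library 3 edgeR called none of this list and DESeq2 called 4 lower, where it called 4.04% of all genes lower.

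Of the main connexin genes of astrocytes, Gjb6 fell and Gja1 did not pass the test. Gjb6 (chromosome 14, 57123303 to 57133611, minus strand), the gene of connexin 30, had 25.6, 41.8 and 39.7 CPM in the syringin libraries, against 76.5, 73.1 and 91.4 CPM in the PBS libraries. Every syringin value was well below every PBS value. At -1.17 ± 0.19, or 44.4% of the PBS level, this was the largest fall of the 9 genes (adjusted p = 0.0207). The log2 fold change stayed between -1.30 and -0.98 with each library left out in turn, but the call was lost without PBS library 1, 2 or 3 (adjusted p = 0.0538, 0.0643 and 0.129) and without syringin library 3 (adjusted p = 0.0599). Of all genes tested, 3.07% had a log2 fold change as low or lower.

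Gja1 (chromosome 10, 56377330 to 56402513, plus strand), the gene of connexin 43, which ependymal, meningeal and endothelial cells make too, had 125, 242 and 235 CPM in the syringin libraries, against 198, 304 and 383 CPM in the PBS libraries. Syringin libraries 2 and 3 were above PBS library 1, and the highest library of each group was over 1.9 times its lowest, at 1.94 in syringin and 1.93 in PBS cords. The log2 fold change was -0.56 ± 0.30 (adjusted p = 0.309), and -0.31 without syringin library 1 and -0.32 without PBS library 3. On the deposited FPKM scale, Gjb6 and Gja1 were close in PBS cords, at 27.9 ± 3.41 and 26.7 ± 8.36 FPKM with overlapping libraries. In syringin cords Gjb6 was at 12.1 ± 2.74 FPKM and Gja1 at 17.8 ± 5.50 FPKM, also with overlapping libraries. The lengths behind these FPKM are not known here. In PBS cords Gja1 had a mean of 295 CPM and Gjb6 of 80.3 CPM. Their longest transcripts in GENCODE M21 have 3889 and 2105 bases. By those lengths Gja1 would lie above Gjb6, so the likeness in PBS cords depends on the lengths used.

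The promoters of this connexin pair are set side by side because the genes code for partners in the same junctions and the groups were apart for Gjb6 and overlapped for Gja1. Each window holds 250 bases before and 50 after the RefSeq start, at chr14:57133562-57133861, minus strand, for Gjb6 and chr10:56377050-56377349, plus strand, for Gja1 (GRCm38.p6). Capitals mark matches to the AP-1 motif (TGANTCA) or the CCAAT box on either strand:

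Gjb6: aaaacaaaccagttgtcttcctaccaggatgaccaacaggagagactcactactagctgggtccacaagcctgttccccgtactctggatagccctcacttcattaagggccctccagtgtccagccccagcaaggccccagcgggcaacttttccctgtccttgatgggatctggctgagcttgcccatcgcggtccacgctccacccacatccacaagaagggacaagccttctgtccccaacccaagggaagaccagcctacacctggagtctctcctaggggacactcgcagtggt

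Gja1: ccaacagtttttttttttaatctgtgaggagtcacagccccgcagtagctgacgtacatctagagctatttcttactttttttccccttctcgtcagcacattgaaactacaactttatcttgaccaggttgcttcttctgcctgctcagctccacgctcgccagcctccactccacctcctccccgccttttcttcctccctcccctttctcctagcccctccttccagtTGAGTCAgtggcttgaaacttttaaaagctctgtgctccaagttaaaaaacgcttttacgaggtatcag

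The Gja1 window held 1 AP-1 match, TGAGTCA, that begins 19 bases before the start, and the Gjb6 window held neither motif. An AP-1 match was found in 7.93% of the 27025 windows and in 1 of the 8 windows of these genes searched. Other motifs searched on both strands were a STAT motif (TTCNNNGAA, in 8.47% of all windows), the NFI half-site (TTGGC, 47.0%; its complement GCCAA overlaps a CCAAT box, as at both sites of Glul), the GC box (GGGCGG, 35.9%), the TATA box (TATAAA, 14.2%), the CRE (TGACGTCA, 1.88%) and a SOX core (ACAAT, 31.6%). Of the genes that fell, Slc1a2, Mlc1 and Gpc5 held an NFI half-site and Gjb6 did not. Of the others searched, Glul and Hepacam held one and Slc1a3 and Gja1 did not. Aqp4 was not searched. The RefSeq start used for Slc1a2 lies 47.8 kb inside the gene, so its window is not that of the first annotated start and is not printed. The start used for Mlc1 lies 454 bases inside its gene, and 0 annotated transcripts begin within 50 bases of it.

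Of 12 other connexin, pannexin and junction scaffold genes, none rose and 2 fell (median 0.09), where 3.39% of all genes were lower. Both genes that fell are known from neurons: the pannexin gene Panx2 (-1.22 ± 0.16, adjusted p = 0.0142) and Gjd2, the gene of the neuronal connexin 36 (-1.18 ± 0.21, adjusted p = 0.0249). Gjb2, the gene of connexin 26, which astrocytes and meningeal cells express, had 13.3, 15.2 and 11.4 CPM in syringin libraries, against 8.37, 25.4 and 26.0 CPM in PBS libraries, with overlapping groups (-0.58 ± 0.38, adjusted p = 0.405). The oligodendrocyte connexin gene Gjb1, named after its values were seen, had 128, 98.5 and 113 CPM in syringin libraries, against 65.1, 94.9 and 79.3 CPM in PBS libraries, a value of 0.50 ± 0.15 that missed the threshold (adjusted p = 0.101). Without PBS library 3 edgeR called none of this list and DESeq2 called 2 lower, where it called 4.04% of all genes lower.

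The genes of the MLC1 complex had small errors. Mlc1 (chromosome 15, 88955884 to 88979007, minus strand) had 129, 136 and 157 CPM in the syringin libraries, against 197, 217 and 214 CPM in the PBS libraries, with all syringin values lower. It fell by 0.57 ± 0.10 on the log2 scale, to 67.2% of the PBS level (adjusted p = 0.0243); the call was lost without PBS library 1, 2 or 3 (adjusted p = 0.0566, 0.0925 and 0.143) and without syringin library 2 (adjusted p = 0.0656). Hepacam (chromosome 9, 37367351 to 37386575, plus strand), the gene of GlialCAM, which oligodendrocytes express too, had 141, 144 and 153 CPM in the syringin libraries, against 196, 184 and 174 CPM in the PBS libraries. The groups were apart and each was tight, and the log2 fold change of -0.34 ± 0.09 missed the threshold (adjusted p = 0.0626). DESeq2 on the same counts called Hepacam and Slc1a3 lower as well (adjusted p = 0.0069 and 0.0116), 6 of the 9 genes in all, where it called 8.13% of all genes lower. The chloride channel gene Clcn2, whose protein GlialCAM binds, had 61.1, 56.1 and 65.3 CPM in syringin libraries, against 70.8, 76.3 and 71.2 CPM in PBS libraries, a value of -0.26 ± 0.09 that did not pass (adjusted p = 0.134).

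Gpc5 (chromosome 14, 115092215 to 116525179, plus strand) was the least abundant of the 9 genes and has by far the longest span, 1433 kb. It had 18.0, 14.3 and 12.5 CPM in the syringin libraries, against 32.1, 24.6 and 31.3 CPM in the PBS libraries. All syringin values were lower, and library 1 was the highest of both groups. The log2 fold change was -0.98 ± 0.17, or 50.8% of the PBS level (adjusted p = 0.0242). The call was lost without PBS library 1, 2 or 3 (adjusted p = 0.0744, 0.0506 and 0.142) and without syringin library 2 or 3 (adjusted p = 0.0656 and 0.0708). Of 5 other glypican genes none rose and 1 fell (median -0.02), where 3.39% of all genes were lower. It was Gpc3, the gene of a glypican of embryonic tissues and fibroblasts (-1.04 ± 0.22, adjusted p = 0.042). Without PBS library 3 edgeR lost this call and DESeq2 called 1 glypican gene lower, where it called 4.04% of all genes lower.

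**Figure D2:**
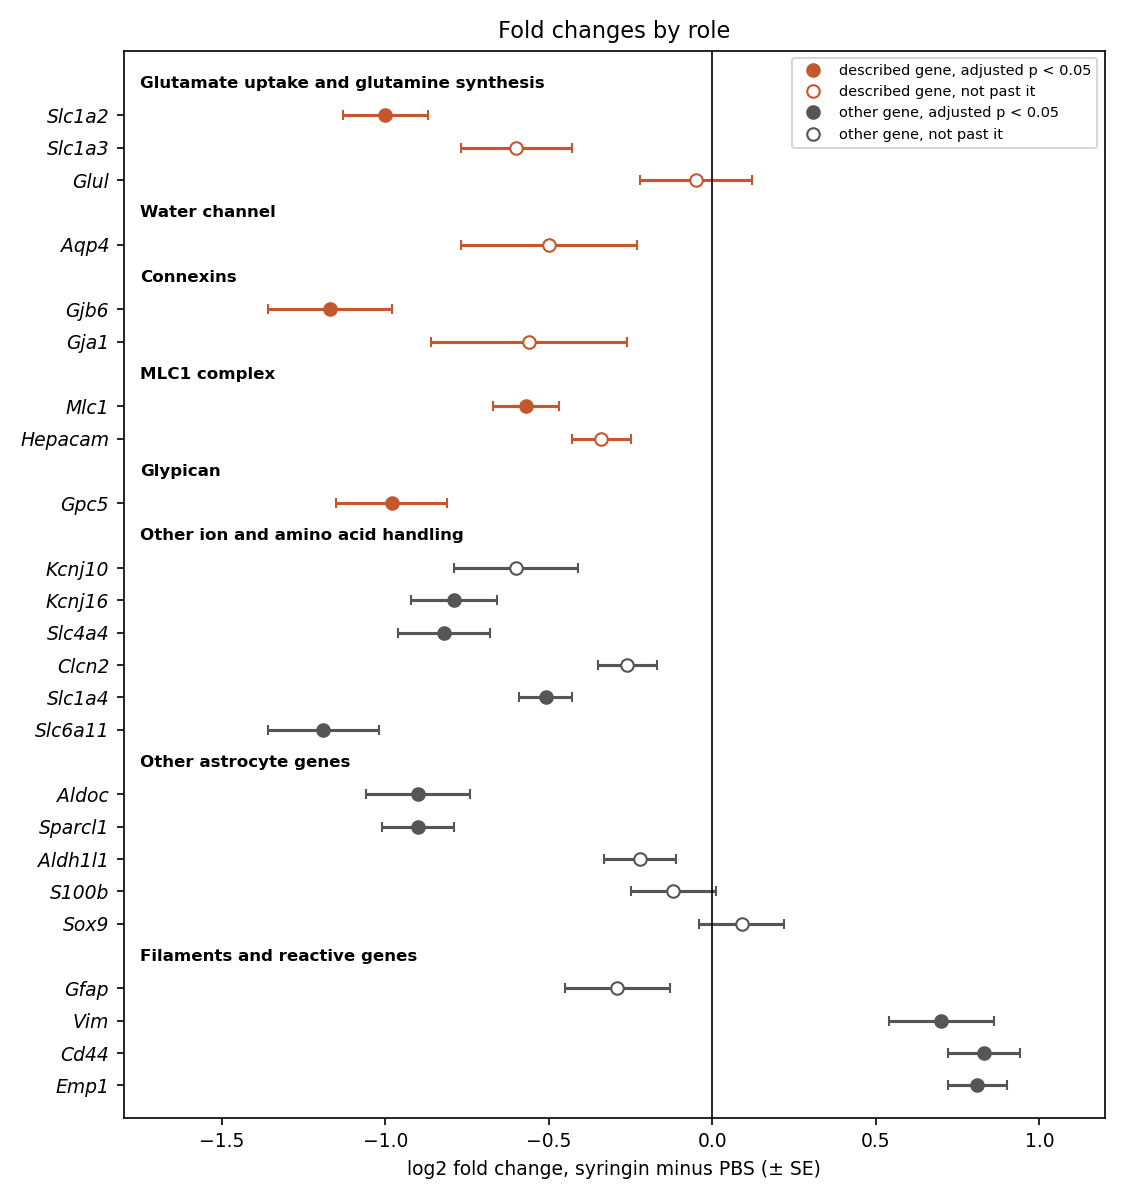
Log2 fold change of syringin minus PBS (horizontal axis, ± SE, n = 3 in each group) for the 9 genes in orange and for other genes of related roles in grey; filled points passed an adjusted p of 0.05. The 9 genes lie between -1.17 and -0.05, and Vim, Cd44 and Emp1 (filled) and Sox9 (open) lie on the other side of 0.

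Whether genes with a shared role changed by different amounts was asked with their ratio within each library, which does not depend on library scaling. The log2 ratio of Slc1a2 to Slc1a3 was 3.71, 3.54 and 3.62 in the syringin libraries, against 4.27, 3.83 and 3.98 in the PBS libraries, a difference of -0.40. For Gjb6 over Gja1 it was -2.28, -2.53 and -2.56 in the syringin libraries, against -1.37, -2.06 and -2.07 in the PBS libraries, a difference of -0.63. For Slc1a2 over Glul it was -1.46, -0.73 and -0.88 in the syringin libraries, against -0.40, -0.02 and 0.20 in the PBS libraries, a difference of -0.95. In these 3 pairs all syringin ratios were below all PBS ratios, and the two-sided exact permutation p was 0.1, the smallest that 3 mice against 3 can give (adjusted p = 0.133 over 4 pairs). Mlc1 over Hepacam was -0.12, -0.08 and 0.03 in the syringin libraries, against 0.01, 0.24 and 0.30 in the PBS libraries, where the groups overlapped (difference -0.24, exact permutation p = 0.2, adjusted p = 0.2). In FPKM, Slc1a2 was 8.02 ± 0.47 times Slc1a3 in syringin and 10.7 ± 1.68 times in PBS cords (SD, n = 3 each). Gjb6 was 0.699 ± 0.0771 times Gja1 in syringin and 1.11 ± 0.323 times in PBS cords (SD, n = 3 each). The size of these FPKM ratios depends on the lengths behind them, which are not known here.

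**Figure D3:**
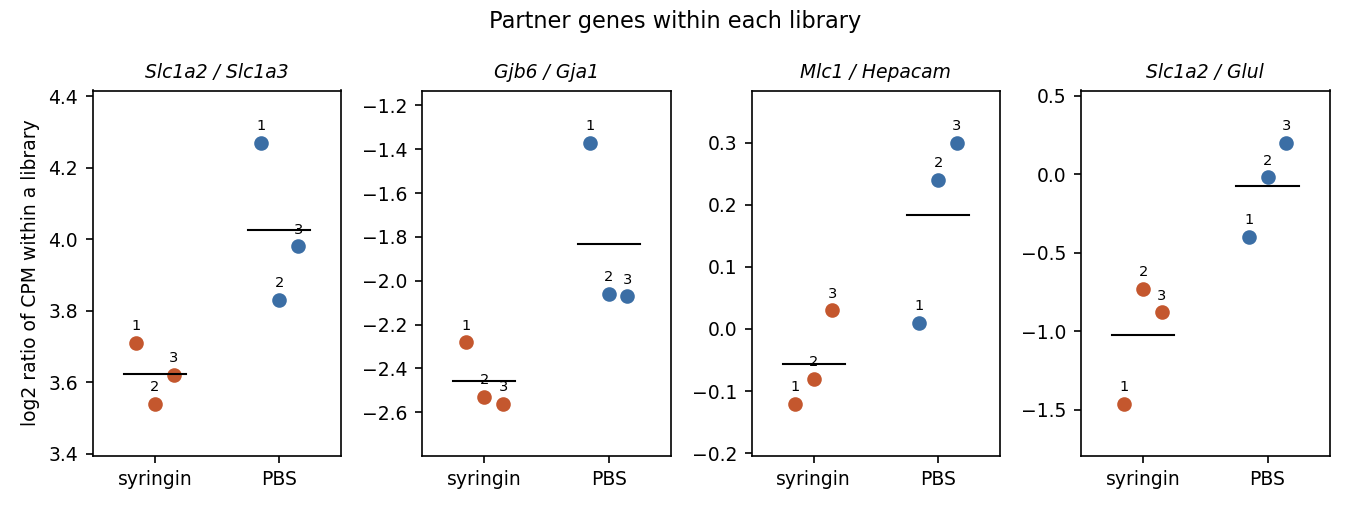
Log2 ratio of CPM between partner genes within a library (vertical axes, each on its own scale) in syringin (left) and PBS cords (right); points are single mice with their replicate number and lines are group means. The groups are apart for Slc1a2 over Slc1a3, Gjb6 over Gja1 and Slc1a2 over Glul, and overlap for Mlc1 over Hepacam.

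Of 25 other genes by which astrocytes are recognised 10 fell, none rose and 15 did not pass, where 3.39% of all genes were lower and 1.62% higher. Their median was -0.63, against -0.57 for the 9 genes and 0.008 for all genes tested. Among those with the smallest p were the matrix protein gene Sparcl1 (-0.90 ± 0.11, adjusted p = 0.0114), the GABA transporter gene Slc6a11 (-1.19 ± 0.17, adjusted p = 0.0186) and the glycolytic aldolase gene Aldoc (-0.90 ± 0.16, adjusted p = 0.026). The folate enzyme gene Aldh1l1 had 121, 129 and 125 CPM in syringin libraries, against 157, 158 and 122 CPM in PBS libraries (-0.22 ± 0.11, adjusted p = 0.298). S100b had 334, 321 and 437 CPM in syringin libraries, against 379.8, 397 and 410.0 CPM in PBS libraries (-0.12 ± 0.13, adjusted p = 0.633), and Sox9 had 66.8, 46.3 and 57.7 CPM in syringin libraries, against 54.3, 53.0 and 53.5 CPM in PBS libraries (0.09 ± 0.13, adjusted p = 0.746). The groups overlapped for these 3 genes. Without PBS library 3, none of the 25 genes was called by edgeR, and 12 were called lower by DESeq2, where 4.04% of all genes were.

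Set against the mean of those 25 genes within each library, Slc1a2 and Gjb6 were lower in every syringin than in every PBS library, by -0.33 and -0.52 on the log2 scale (exact permutation p = 0.1 each, the smallest possible; adjusted p = 0.45 over the 9 genes). For Gpc5 the difference was -0.31 with overlapping groups (exact permutation p = 0.4). Slc1a3, Aqp4, Gja1 and Mlc1 were at 0.07, 0.13, 0.10 and 0.09, and Hepacam and Glul at 0.33 and 0.62, all with overlapping groups; the values of Slc1a3, Aqp4 and Gja1 were negative without syringin library 2 (-0.03, -0.06 and -0.03), and those of Slc1a3 and Gja1 also without PBS library 1 (-0.01 and -0.09). At 3 mice a group, none of these ratios could pass 0.05.

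Of 15 genes of reactive astrocytes 3 rose and 1 fell (median 0.32), where 1.62% of all genes were higher and 3.39% lower. Emp1 (0.81 ± 0.09, adjusted p = 0.0114), a membrane protein gene, Cd44 (0.83 ± 0.11, adjusted p = 0.0139), the gene of a hyaluronan receptor, and Vim (0.70 ± 0.16, adjusted p = 0.047), the gene of the filament vimentin, rose; macrophages and other cells also express them. Fbln5, an elastic fibre gene, fell (-0.69 ± 0.14, adjusted p = 0.0406). Gfap had 3341, 4239.7 and 4676 CPM in syringin libraries, against 4529.6, 5668 and 4811 CPM in PBS libraries, with overlapping groups (-0.29 ± 0.16, adjusted p = 0.326). Without PBS library 3 edgeR called none of these 15 genes, and DESeq2 called 3 higher and 1 lower. There it called 2.34% of all genes higher and 4.04% lower.

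Markers of other cells moved in the same libraries, and their part in the results for the 9 genes was not tested. Of all genes tested, 1.62% were higher and 3.39% lower. Of 14 macrophage and microglia markers 5 rose and none fell (median 0.74): F10, Lgals3, Clec4d, Msr1 and Arg1, named after their values were seen, by 0.87 to 1.26 on the log2 scale. The other 9 did not pass. Among them Csf1r (-0.29 ± 0.15, adjusted p = 0.299), P2ry12 (-0.74 ± 0.21, adjusted p = 0.088), Cx3cr1 (-0.39 ± 0.21, adjusted p = 0.315) and Tmem119 (-0.16 ± 0.18, adjusted p = 0.634), genes that resident microglia express, had negative values. Aif1 (0.09 ± 0.25, adjusted p = 0.872) and Itgam (0.33 ± 0.19, adjusted p = 0.331) of the same list had positive values. These genes were also named after their values were seen. Over the 14 markers, 10 fold changes were positive and 4 negative. The replicate block and DESeq2 each called 7 of the 14 higher and 1 lower. Of the 22114 genes tested, the block called 1062 higher and 1495 lower, and DESeq2 called 1390 higher and 1797 lower. The summed level of the 14 was 1947 to 2648 CPM in syringin and 1505 to 1632 CPM in PBS cords; Cd68, a lysosomal macrophage marker, had a value of 1.03 ± 0.27 (adjusted p = 0.0666). Of 18 neuron markers 11 fell and none rose (median -0.81), with sums of 2489.6 to 3649.7 CPM in syringin and 4767 to 5986 CPM in PBS cords; Rbfox3, the neuronal nuclear marker gene, had a value of -1.0 ± 0.25 (adjusted p = 0.0601). Of 6 Schwann cell markers none passed, though all 6 had negative fold changes (median -1.61), and their sums were 373 to 613 CPM in syringin and 679.7 to 2145 CPM in PBS cords. None of 10 oligodendrocyte markers passed (median 0.07, sums of 19149 to 26155 CPM in syringin and 19994 to 21916 CPM in PBS cords), with Mbp, a myelin protein gene, at -0.01 ± 0.16 (adjusted p = 0.99). Nor did any of 8 oligodendrocyte progenitor and 7 ependymal markers (medians 0.26 and -0.04), and 1 of 8 endothelial markers rose (median 0.18), Pecam1, named after its value was seen (0.58 ± 0.10, adjusted p = 0.0245). No marker in these lists was at 0 in any library. Without PBS library 3 none of these markers was called by edgeR, while DESeq2 called 7 macrophage markers higher and 12 neuron markers lower, where it called 2.34% of all genes higher and 4.04% lower.

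Within a group, the 9 genes varied together only in part. In PBS library 3, 5 of them had the highest value of the group: Aqp4, Gja1, Gjb6, Slc1a2 and Slc1a3. In syringin library 1, 7 of the 9 genes had the lowest value of the group, and in PBS library 1, 4 had it: Aqp4, Gja1, Mlc1 and Slc1a3, which were lowest in library 1 of both groups. Glul and Gpc5 were instead highest in library 1 of both groups. Both of these libraries held sensory ganglion transcripts, as did syringin library 3. The 11 ganglion markers, of which Scn10a, Scn11a and Mrgprd were at 0 in some library, summed to 325, 37.1 and 161 CPM in the syringin and 404, 73.3 and 79 CPM in the PBS libraries, and none passed. With 1 PBS library among those that held them and 1 syringin library among those that did not, differences within either kind of library have no spread and are not given. With the mean of the ganglion markers as a covariate, Slc1a3 and Hepacam passed besides the 4 called genes (edgeR, adjusted p = 0.00937 and 0.0352), where 6.53% of all genes were called lower; Aqp4 and Gja1 did not (adjusted p = 0.108 and 0.193).

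The calls rested on PBS library 3 more than on any other. Without it, none of the 9 genes and none of all genes tested passed edgeR's adjusted threshold, while 3449 genes had an unadjusted p under 0.05; limma-voom also called 0 genes there and DESeq2 called 1455, among them Slc1a2, Gjb6, Gpc5, Mlc1 and Hepacam of the 9 genes. Without PBS library 1 or 2, Slc1a2 alone of the 9 genes passed. Calls over all genes also moved with the library left out, from 0 to 1944. Lost calls among the 9 genes can thus not be read as particular to them. The fold changes of the 4 called genes moved little in these fits, between -1.10 and -0.91 for Slc1a2, -1.30 and -0.98 for Gjb6, -1.14 and -0.87 for Gpc5 and -0.66 and -0.52 for Mlc1.

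**Figure D4:**
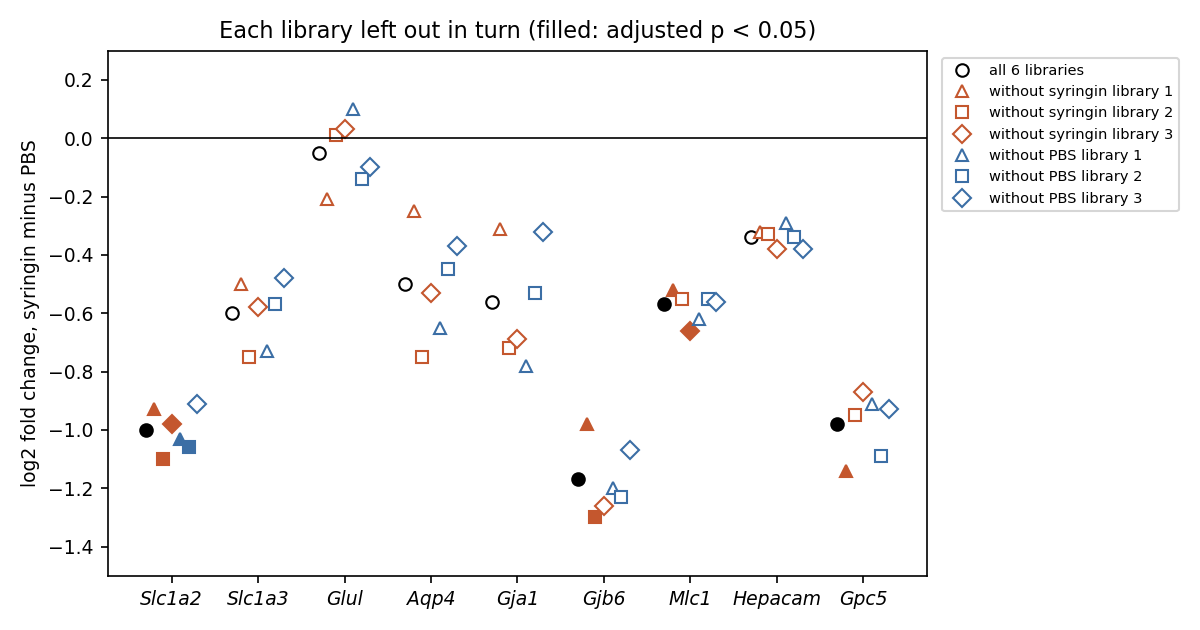
Log2 fold change of syringin minus PBS for each of the 9 genes with all 6 libraries (black) and with each library left out in turn (orange, a syringin library left out; blue, a PBS library left out); filled symbols passed an adjusted p of 0.05. Slc1a2 is filled in all fits but that without PBS library 3, and Glul lies on both sides of 0.

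In FPKM, the order of the 9 genes in syringin cords was Glul, Aqp4, Mlc1, Slc1a2, Hepacam, Gja1, Gjb6, Slc1a3 and Gpc5, and in PBS cords Glul, Aqp4, Slc1a2, Mlc1, Hepacam, Gjb6, Gja1, Slc1a3 and Gpc5. Neighbours whose libraries overlapped were Mlc1 with Slc1a2 (45.8 ± 4.17 and 45.6 ± 4.51 FPKM) and Gja1 with Gjb6 in syringin cords, and Gjb6 with Gja1 in PBS cords; all other neighbours were apart. In PBS cords Slc1a2 was thus above Mlc1 (92.8 ± 10.5 and 69.4 ± 3.49 FPKM). In syringin cords the values of Slc1a2 and Mlc1 could not be separated. These orders hold for the lengths behind the deposited FPKM, which are not known here. Gja1 ranked 7 in PBS and 6 in syringin cords by FPKM. By CPM, which is not scaled by length, it ranked 4 in both.

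The genes whose levels over the 6 libraries were most like the mean standardised profile of the 9 genes were, among 11204 others at a mean of 10 CPM or more, Glrb, Pfkm, Fam217b, Trp53bp1, Kantr, Gpld1, Slc25a36 and Sparcl1, with Pearson's r of 0.998 to 0.993. With 6 libraries such values are easily high: 483 genes had r over 0.9. The mean profile was -0.98, -0.45 and -0.64 in the syringin and 0.59, 0.59 and 0.89 in the PBS libraries, so likeness here mostly means lower levels in the syringin group. Glrb, the gene of the beta subunit of the glycine receptor, was at 74.8 ± 5.92 CPM in syringin and 125 ± 9.61 CPM in PBS cords (SD, n = 3 each).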

How the data were processed

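Spinal cord RNA of 6 mice was sequenced, 3 given syringin and 3 given PBS, grouped by the treatment in their labels. Per the labels' protocols, stranded libraries were made from polyadenylated RNA. HISAT2, StringTie, GRCm38 and mm10 are named in the submitters' processing notes. For every gene in each library the authors deposited FPKM and an estimated count, a whole number; whether counting used strand was not stated. Genes of the table that share exons with the 9 genes had at most 89 counts in a library. The table gives other starts than GENCODE M21 for all 9 genes and the same span for 8, so positions printed are those of GENCODE M21. No libraries were duplicates: within groups, chi-square divided by degrees of freedom was 31.3 to 147.4. The labels do not say whether the mice came from separate cohorts, so p-values measure only the spread between these samples.

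Low genes were removed by filterByExpr (10 as minimum count, 15 as minimum total), and TMM factors were 0.9655 to 1.0292. Treatment was the only term of the robust quasi-likelihood fit (edgeR 4.0.16, R 4.3.3), which was checked on simulated data. P-values are two-sided and adjusted over all genes tested, and each SE is the size of the log2 fold change divided by the root of F. Ratios used log2 CPM with a prior count of 2. Alternatives used DESeq2 1.42.0, limma 3.58.1 (also on log2(FPKM + 0.1)), other scalings, filters and covariates. The correction for length and GC content and the tests without PBS library 3 in other tools were chosen after the data were seen. The 9 genes and the lists were chosen with earlier results of these data known. Besides the 9 genes, the text names up to 4 called genes with the smallest p per related list, some genes whatever their value (Gfap, Aldh1l1, Sox9, S100b, Kcnj10, Gjb2, Clcn2, Rbfox3, Cd68, Mbp and Scn10a) and the 8 genes most like the 9; a few genes that this rule picks are not reported here. One gene of the glutamate list, Pc, was not analysed here. Promoter windows are those of RefSeq (GRCm38.p6); 8 of the 9 genes were searched. Python 3.11.15 with matplotlib 3.10.9 drew the figures.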

Additional observations from a re-analysis of the deposited data

How the results depend on the processing

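Of all genes, 1108 were called; the replicate number as a block gave 2557, the ganglion covariate 2591 and DESeq2 3187, and leaving out 1 library gave 0 (PBS library 3; 3449 at an unadjusted p under 0.05) to 1944 (syringin library 1), while limma-voom without PBS library 3 called 0. Of the 9 genes, 4 were called; 0 to 4 were called with 1 library left out, 0 by limma-voom without PBS library 3, and 7 with the replicate block, which added Slc1a3, Aqp4 and Gja1 (edgeR, adjusted p = 0.0187, 0.0477 and 0.0184). The labels' replicate numbers are shared, and same-numbered libraries deviated together only in part (correlations 0.29, 0.12 and 0.05, while syringin library 2 and PBS library 3 reached 0.14). These correlations cannot tell whether same-numbered animals were paired, so the block is given as an alternative only. Other scalings, filters, counts divided by 4, limma on FPKM and the length and GC correction kept the 4 calls, and a filter at a mean CPM of 1 added Hepacam (edgeR, adjusted p = 0.0452). The length and GC correction gave 670 higher and 611 lower genes in all, against 359 and 749 in the main result; the split was 1390 and 1797 by DESeq2, 1062 and 1495 with the block and 1146 and 1445 with the ganglion covariate. Glul (-0.21 to 0.10 with 1 library left out) changed sign, to 0.01 and 0.03 without syringin library 2 or 3 and 0.10 without PBS library 1. Ratios to the astrocyte identity genes changed sign for Slc1a3 (-0.03 to 0.18), Aqp4 (-0.06 to 0.30) and Gja1 (-0.09 to 0.29) with 1 library left out. List counts over all genes tested were higher under DESeq2 and the block, at 16 and 19 against 10 identity genes, 7 and 5 against 2 glutamate genes, 5 and 5 against 3 water and ion genes, 8 and 6 against 4 reactive genes, 8 and 8 against 5 macrophage genes, and 4 and 3 against 0 Schwann cell and 3 and 3 against 0 progenitor genes. The calls in the identity, glutamate, water and ion and Schwann cell lists were all lower. Of the reactive genes, DESeq2 called 7 higher and 1 lower, and the block 5 higher and 1 lower. Both called 7 macrophage genes higher and 1 lower, and 2 progenitor genes higher and 1 lower. DESeq2 and the block also called more of all genes lower, at 8.13% and 6.76% against 3.39%. They called more of all genes higher as well, at 1390 and 1062 against 359. In CPM in place of FPKM, 2 of the 9 genes kept their rank in PBS cords. Of the 8 genes most like the 9, 2 to 5 were shared with 1 library left out. The errors of Aqp4 and Gja1 in the main fit were wide. With 3 mice a group, the lack of a call there does not show that they were unchanged.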
